A study of Mus musculus with 24 samples.

Results

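The redox and NRF2 antioxidant genes are 36 mouse genes that were chosen by name. They comprise the transcription factor gene Nfe2l2 (NRF2) and its repressor Keap1, 5 inducible detoxifying enzymes, 4 genes of glutathione synthesis and recycling, 3 superoxide dismutase and catalase genes, 4 genes of glutathione peroxidases and selenoprotein P, 5 of the thioredoxin and glutaredoxin system, 6 peroxiredoxins, 3 of microsomal glutathione transferases and methionine sulfoxide reductase, and 4 of the pentose phosphate pathway. Each of the 36 symbols occurred once among the 14293 genes of the table, and all 36 passed the filter on low values that left 11562 genes for testing. The study profiled bulk liver RNA from mice with NASH (nonalcoholic steatohepatitis, in which a fat-laden liver is also inflamed and scarred) in 24 libraries. There were 3 groups of 8: a vehicle group, a group given vutiglabridin, which the series title calls an agonist of paraoxonase-2, and a group given semaglutide, which activates the GLP-1 receptor and is used against diabetes and obesity. Strain, NASH model, sex, age, dose and duration are not in the labels, which hold no group of healthy livers, and do not say that the libraries of a group came from separate animals, so p-values measure the spread between these libraries, which may be technical.

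NRF2 is a transcription factor that is held at a low level by KEAP1, an adaptor that hands it to a ubiquitin ligase for degradation. Oxidants and electrophiles modify cysteines of KEAP1, NRF2 then accumulates, pairs with a small MAF protein and binds antioxidant response elements beside genes for glutathione synthesis, thioredoxin recycling, quinone reduction and NADPH supply. The control acts largely on the protein, so the mRNA of Nfe2l2 and Keap1 is not a measure of NRF2 activity. In hepatocytes, glutathione and thioredoxin pass electrons from NADPH to peroxidases, which together with catalase remove hydrogen peroxide and lipid peroxides, and oxidant load is one of the features studied in steatohepatitis.

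The values are FPKM, fragments per kilobase of transcript scaled to the mapped fragments of a library, so levels can be compared between genes per length. Tests were made with limma on log2(FPKM + 1), in one fit of all 24 libraries, with p-values adjusted over all 11562 genes within a comparison and called at 0.05. Below, FPKM values are means ± SD over the 8 libraries of a group, differences are on the log2(FPKM + 1) scale ± SE, and p-values are limma's adjusted p. Low FPKM values lie on steps of 1 fragment, which implied 11980000 to 19820000 fragments per vehicle library, 5960000 to 15240000 per vutiglabridin library and 9320000 to 12420000 per semaglutide library. In the table, all 8 semaglutide columns carry a trailing space in every cell and none of the other 16 do, so semaglutide and the way its columns were written, or any library batch that goes with it, cannot be told apart. Summed over all genes, vehicle libraries held 330352 ± 14299 FPKM, vutiglabridin libraries 368614 ± 14580 and semaglutide libraries 343428 ± 14751. The 10 hepatocyte markers that check the tissue label summed to between 39812 and 59413 FPKM in every library.

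Sequences at the starts of these genes were looked up because part of the members, which were chosen by name, are known targets of NRF2. RefSeq promoter windows (GRCm38.p6, from 250 bases before to 50 after a transcript start) were matched by symbol for 31 of the 36 members, with 42 windows in all. The core of the antioxidant response element, TGACNNNGC, was searched on both strands, its reverse complement being GCNNNGTCA. It was found in any window of 9 of the 31 members (29.0%), against 16.9% of the 9192 tested genes with a window and 14.0% of all 27025 genes with one. Counted by window, 12.4% of all 32851 windows held it. The members include genes known as NRF2 targets, so their share is a description and not a test. A match is a run of letters and not a measured NRF2 site, and 22 members had no match in these windows. Msra, Gsr, Prdx6, Hmox1 and Gclc were not matched to a window. The 5 stretches shown here are those whose core lies before a start and outside annotated UTRs, read 5′ to 3′ on the strand of the gene, with the core or its reverse complement in capitals.
Nfe2l2: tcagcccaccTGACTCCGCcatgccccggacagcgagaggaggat
Gclm: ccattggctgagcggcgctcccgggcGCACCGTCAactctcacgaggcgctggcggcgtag
Prdx1: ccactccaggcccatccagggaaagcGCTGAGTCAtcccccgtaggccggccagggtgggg
Txnrd1: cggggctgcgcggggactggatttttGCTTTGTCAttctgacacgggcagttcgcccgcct
Sod1: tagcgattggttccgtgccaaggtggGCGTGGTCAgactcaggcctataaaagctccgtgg

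The Nfe2l2 stretch is chr2:75704869-75704913 on the minus strand, with the core 240 to 232 bases before the start, inside an exon of the neighbouring gene E030042O20Rik. The Gclm stretch is chr3:122245397-122245457 and the Prdx1 stretch chr4:116685440-116685500, both on the plus strand, with the core 134 to 126 and 133 to 125 bases before the start. The Txnrd1 stretch, chr10:82859088-82859148 on the plus strand, lies before one of its later transcript starts and inside the gene, with the core 92 to 84 bases before that start. The Sod1 stretch is chr16:90220680-90220740 on the plus strand, with the core 56 to 48 bases before the start. Mgst1 held a core 56 to 48 bases and G6pdx 57 to 49 bases before a start, and those of Srxn1 and Pgd began 29 and 4 bases after it. The 9 genes with a core did not all move one way: in semaglutide against vehicle, Gclm and Sod1 were higher, Srxn1 and Mgst1 lower and the other 5 did not pass.

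Vutiglabridin livers had higher mRNA of 5 members than vehicle livers and lower mRNA of 2, out of 36. The 5 were Sod1, Cat, Glrx, Prdx4 and Prdx6, with log2 differences from 0.21 to 0.33, and the 2 were Nfe2l2 and Gss at −0.28 and −0.41. Of all genes tested, 15.3% were called in this comparison, 6.53% higher and 8.78% lower, and of the members 13.9% were higher and 5.56% lower. All 8 values lay above the vehicle range for 1 member, Cat, and below it for 1, Nfe2l2, as they did for 0.77% and 0.969% of all genes tested (1.74% in all). The members' median difference was 0.04, beside 0.01 over all genes. FPKM does not fix the sum of a library, and rescaling to transcripts-per-million values (TPM) moved the median of all genes to −0.13 and the split of member calls from 5 higher and 2 lower to 2 and 10. Of all genes, 2.02% were higher and 23.6% lower after that scaling, so 10 of 36 lower lies near the background. Quantile normalization gave 1 and 5, where 4.65% and 7.33% of all genes were called, with a member median of −0.06 where that of all genes was 0.02. Relative to the median of all genes, the members' median was 0.03 as deposited, 0.01 after TPM scaling and −0.08 after quantile normalization, so no direction is given for the 36 genes together.

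Semaglutide livers had higher mRNA of 3 members than vehicle livers (Gclm, Sod1 and Txnrd2) and lower mRNA of 8 (Nqo1, Srxn1, Gss, Gpx4, Prdx5, Mgst1, Msra and Taldo1). Differences ran from 0.26 to 0.27 for the first and from −0.69 to −0.26 for the second set. In this comparison 27% of all genes tested were called, 14.3% higher and 12.7% lower, while 8.33% of the members were higher and 22.2% lower. The members' median was −0.10 beside −0.01 over all genes, and relative to the median of all genes it was −0.08, −0.09 and −0.09 as deposited, after TPM scaling and after quantile normalization. The ranges of the groups overlapped for all 36 members, while they did not for 5.83% of all genes, 4.09% higher and 1.74% lower.

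Directly compared, vutiglabridin livers had higher mRNA than semaglutide livers for 12 members (Keap1, Gsr, Sod2, Cat, Txn1, Glrx, Prdx1, Prdx5, Prdx6, Mgst1, Msra and Taldo1) and lower mRNA for 2 (Nfe2l2 and Gclm). Of all genes tested, 24.4% were called, 11.9% higher and 12.6% lower, against 33.3% and 5.56% of the members. For Glrx, Prdx1, Mgst1 and Msra all 8 vutiglabridin values lay above all 8 semaglutide values, which held for 1.13% of all genes, and for 3.4% in either direction. The members' median was 0.13 against 0.01 over all genes. Relative to the median of all genes it was 0.12 as deposited, 0.11 after TPM scaling and 0.01 after quantile normalization, under which 18 of 36 members lay above that median. TPM scaling changed the split of 12 higher and 2 lower to 7 and 3 (all genes 5.15% and 19.6%). Quantile normalization changed it to 5 and 3 (all genes 10.4% and 11.6%), and removal of trends with GC content and length to 9 and 3 (all genes 12.1% and 11.3%). The 3 comparisons share libraries, so values of a member in them are not independent of each other.

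**Figure D1:**
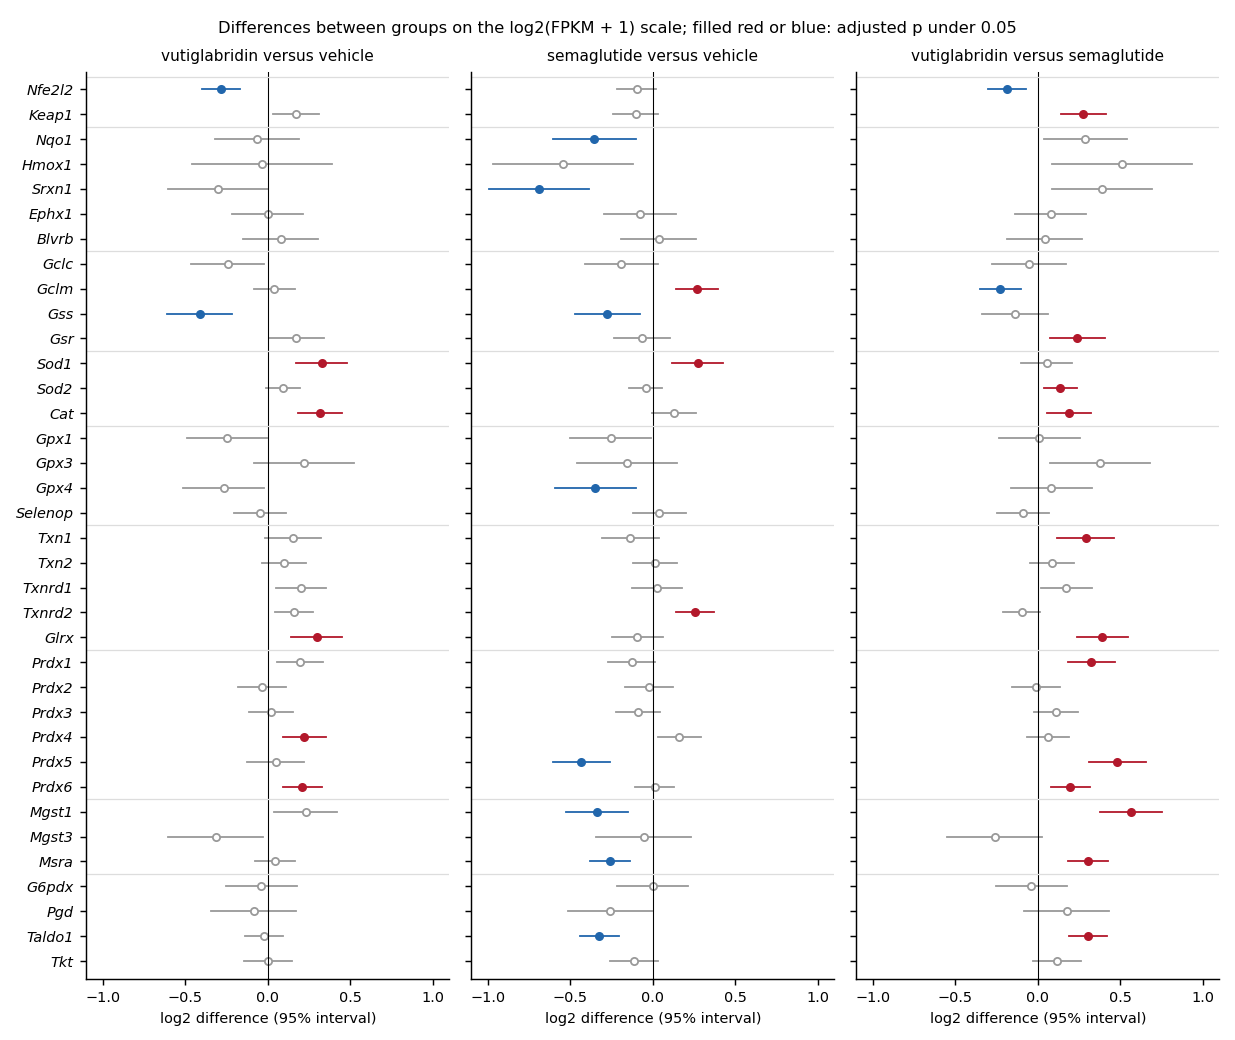
Difference of each of the 36 members in the 3 comparisons, on the log2(FPKM + 1) scale (horizontal axis), with 95% intervals, ordered by role from regulators at the top to the pentose phosphate pathway at the bottom. Filled red and blue points passed an adjusted p of 0.05, with 5 higher and 2 lower for vutiglabridin against vehicle, 3 and 8 for semaglutide against vehicle and 12 and 2 for vutiglabridin against semaglutide.

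Levels spanned from 3.36 ± 0.455 FPKM for G6pdx to 2605 ± 255 for Selenop in vehicle livers. Selenop, which encodes the selenium carrier of plasma, Mgst1 at 1813 ± 242, Gpx1 at 1209 ± 127 and Cat at 895 ± 76.4 FPKM held 76.0% ± 0.845 of the members' summed FPKM. In vehicle libraries the ranges of these 4 genes did not touch each other, and the order was the same in all of them. In vutiglabridin libraries Cat, at 1113 ± 56.1, had a higher mean than Gpx1, at 1031 ± 204, but their ranges overlapped, as they did in semaglutide libraries. Summed over the 36 members, FPKM was 8582 ± 555 in vehicle, 8930 ± 420 in vutiglabridin and 8036 ± 634 in semaglutide livers, which is 2.60% ± 0.135, 2.43% ± 0.133 and 2.34% ± 0.101 of all FPKM. The order of vutiglabridin and vehicle thus differs between the sum and the share.

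**Figure D2:**
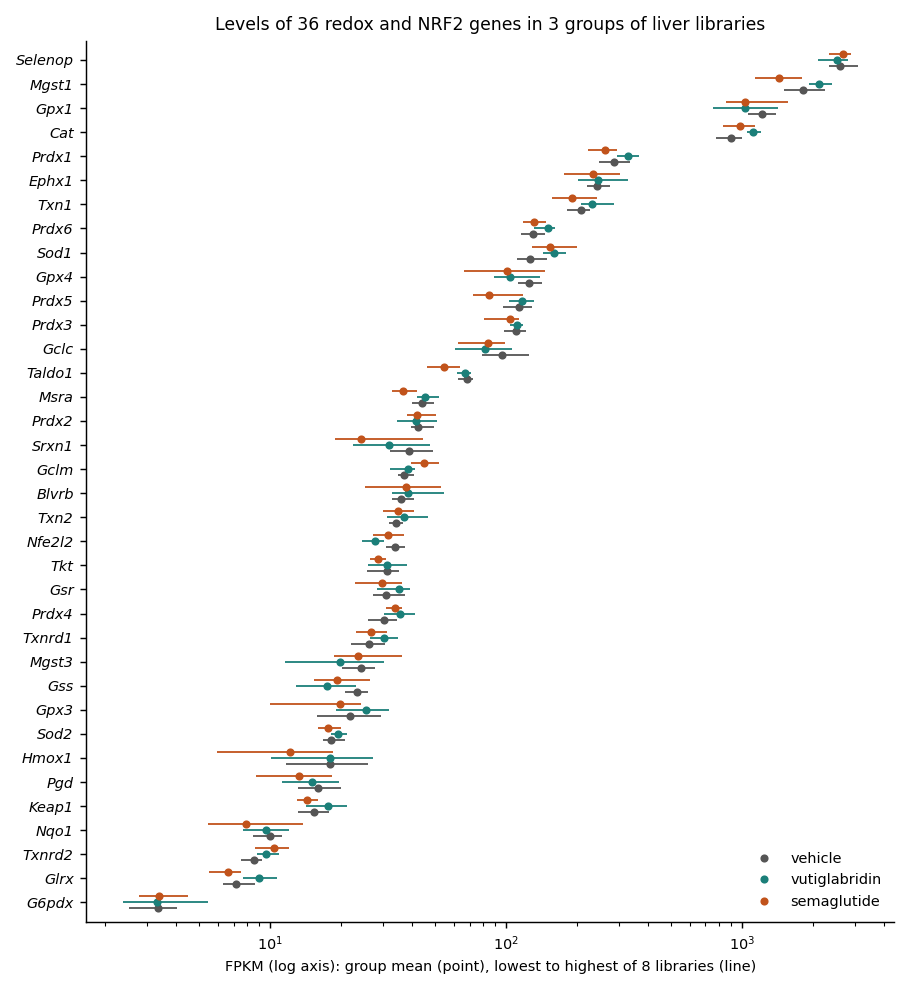
Level of each member in the 3 groups as FPKM on a log axis, with the group mean as a point and the lowest to highest of 8 libraries as a line, ordered by level. Selenop stood highest and G6pdx lowest, and the lines of vutiglabridin and vehicle are apart for Cat and Nfe2l2 alone among the 36.

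Of the regulators, the gene of NRF2 itself was lower under vutiglabridin. Nfe2l2 (ENSMUSG00000015839, chr2:75675513-75704641, minus strand, GRCm38) ranged from 31.0 to 37.3 FPKM in vehicle libraries with a median of 33.9, from 24.5 to 30.5 with a median of 27.7 in vutiglabridin libraries, and from 27.4 to 37.1 with a median of 31.7 in semaglutide libraries. The vutiglabridin and vehicle ranges did not overlap, though their ends were close, and the semaglutide range overlapped both. The mean was 34.0 ± 2.27 in vehicle and 27.7 ± 1.84 in vutiglabridin, a difference of −0.28 ± 0.06 (adjusted p = 0.00129). This call stood under all 15 alternative settings and all 24 single-library omissions, with values from −0.45 to −0.26. Against semaglutide (31.7 ± 2.84) it was −0.18 ± 0.06 (adjusted p = 0.0177), a call that ended at −0.11 (adjusted p = 0.198) when the 4 libraries under 10000000 implied fragments were left out. Those libraries were vutiglabridin replicate 7 and semaglutide replicates 1, 2 and 4. Depth and a smaller semaglutide group therefore cannot be told apart in that omission, here or for other genes. Semaglutide and vehicle differed by −0.10 ± 0.06, which did not pass (adjusted p = 0.202).

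Keap1 (ENSMUSG00000003308, chr9:21229730-21239361, minus strand), the adaptor that marks NRF2 for degradation, was measured at 13.2 to 17.8 FPKM (median 15.2) in vehicle, 14.2 to 21.1 (median 17.5) in vutiglabridin and 12.95 to 16.02 (median 14.1) in semaglutide libraries. In 7 of 8 vutiglabridin libraries it lay above the semaglutide mean. It was higher in vutiglabridin than in semaglutide livers by 0.28 ± 0.07 (adjusted p = 0.00392) under every setting and omission tried. Against vehicle the difference of 0.17 ± 0.07 did not pass (adjusted p = 0.0833). It passed in 2 of 15 settings, both with GC and length trends removed (0.22 in each), and in 2 of 24 omissions. Those were 0.21 (0.0265) without vutiglabridin replicate 5 and 0.20 (0.0484) without vehicle replicate 3. Over all settings and omissions the difference ran from 0.02 to 0.22, with adjusted p up to 0.81. An antisense gene, Gm16754, shares 10.9% of the exon bases of Keap1, and whether strand was used in counting is not given in the sources used here. As a description, the ratio of Nfe2l2 to Keap1 FPKM was 2.21 ± 0.188 in vehicle, 1.60 ± 0.215 with vutiglabridin and 2.24 ± 0.312 with semaglutide. Its ranges of 1.91 to 2.46 in vehicle and 1.32 to 1.94 in vutiglabridin met only at their ends.

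Among the inducible enzymes, 2 of 5 were lower under semaglutide, and none of the 5 passed in the other comparisons. Srxn1, sulfiredoxin, which repairs overoxidized peroxiredoxins, ranged from 32.2 to 48.8 FPKM (median 36.7) in vehicle, from 22.6 to 47.7 (median 29.3) in vutiglabridin and from 18.8 to 44.5 (median 22.4) in semaglutide libraries. In semaglutide, 7 of 8 libraries lay below every vehicle library, and the eighth, replicate 7, was at 44.5. The difference from vehicle was −0.69 ± 0.15 (adjusted p = 0.00117) and −0.82 without that library. Vutiglabridin differed from vehicle by −0.30 ± 0.15 (adjusted p = 0.180) and from semaglutide by 0.39 ± 0.15 (0.0562), and the latter was 0.52 (0.00315) without semaglutide replicate 7.

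Nqo1, the quinone reductase often used as a readout of NRF2, showed the same library at the top. Vehicle libraries held 8.5 to 11.2 FPKM (median 10.3), vutiglabridin 7.70 to 12.0 (median 9.74) and semaglutide 5.48 to 13.7 (median 7.00). Replicate 7 was the highest of all 24 libraries, whereas 5 of the 8 semaglutide values lay below every vehicle value. The semaglutide mean of 7.90 ± 2.69 was below the vehicle mean of 10.03 ± 0.857 by −0.35 ± 0.12 (adjusted p = 0.0333). That call was lost in 4 of 15 settings and 7 of 24 single omissions, with adjusted p up to 0.0781. Without replicate 7 the semaglutide mean was 7.07 ± 1.42 and the difference −0.46. Vutiglabridin at 9.60 ± 1.49 differed from vehicle by −0.07 ± 0.12 (adjusted p = 0.768).

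Hmox1, heme oxygenase, varied widely within groups and did not pass. It ran from 11.7 to 25.98 FPKM (median 18.2) in vehicle, 10.1 to 27.4 (median 17.4) in vutiglabridin and 5.97 to 18.5 (median 11.2) in semaglutide libraries, with 7 of 8 semaglutide libraries below the vehicle mean. The semaglutide difference of −0.55 ± 0.21 had an adjusted p of 0.0508, which lay between 0.0203 and 0.133 over the alternatives and passed in 6 of 15 settings and 9 of 24 omissions, and vutiglabridin differed from vehicle by −0.03 ± 0.21 (0.935). Ephx1, the microsomal epoxide hydrolase, and Blvrb, a flavin and biliverdin reductase, had group means of 233 to 245 and 35.9 to 38.4 FPKM, and their differences of −0.08 to 0.08 did not pass (lowest adjusted p 0.623).

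Of the 4 genes of glutathione synthesis and recycling, 1 was lower under vutiglabridin (Gss), and 1 was higher (Gclm) and 1 lower (Gss) under semaglutide. The modifier subunit of glutamate-cysteine ligase, Gclm (chr3:122245557-122270732), ranged from 34.8 to 40.7 FPKM (median 35.9) in vehicle, 32.3 to 41.0 (median 39.9) in vutiglabridin and 39.5 to 52.1 (median 44.4) in semaglutide libraries. In 7 of 8 semaglutide libraries it lay above all vehicle libraries. It rose under semaglutide by 0.27 ± 0.06 (adjusted p = 0.00207) and was lower in vutiglabridin than in semaglutide livers by −0.23 ± 0.06 (0.00796). Both calls ended when trends with GC content and transcript length were removed, at 0.10 (adjusted p = 0.205) and −0.08 (0.361). Short stretches of the Gclm exons are shared with Gm17494 on the opposite strand and with the pseudogene Gm6061.

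The catalytic subunit of the same enzyme, Gclc, did not pass. Its range was 79.3 to 125 FPKM (median 90.0) in vehicle, 60.7 to 106 (median 80.9) in vutiglabridin and 62.8 to 99.3 (median 84.1) in semaglutide libraries, so the groups overlapped widely. The differences from vehicle were −0.24 ± 0.11 (adjusted p = 0.131) for vutiglabridin and −0.19 ± 0.11 (0.201) for semaglutide. As a description, the ratio of Gclc to Gclm FPKM was 2.60 ± 0.458 in vehicle, 2.15 ± 0.467 with vutiglabridin and 1.87 ± 0.228 with semaglutide.

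Gss, glutathione synthetase, which makes the second step, was lower than in vehicle livers under each drug. Vehicle libraries held 20.7 to 25.9 FPKM (median 23.3), vutiglabridin 12.8 to 23.1 (median 17.2) and semaglutide 15.3 to 26.5 (median 18.6). All vehicle libraries lay above 7 of 8 vutiglabridin libraries and 6 of 8 semaglutide libraries. The difference was −0.41 ± 0.10 for vutiglabridin (adjusted p = 0.00479), which passed under every setting and omission, and −0.28 ± 0.10 for semaglutide (0.0343), against the same vehicle libraries. The semaglutide call was lost in 8 single omissions and passed in 11 of 15 settings. It was lost under the exact Wilcoxon test (adjusted p = 0.0690) and after removal of GC and length trends (−0.23, 0.0828), also with the replicate block (0.0843). Without the 4 libraries under 10000000 implied fragments it was −0.16 (adjusted p = 0.296). Gss shares exon bases with Acss2 on the opposite strand, which was higher under vutiglabridin (0.88 ± 0.24, adjusted p = 0.0136). Gsr, glutathione reductase, which regenerates glutathione with NADPH, was 35.1 ± 3.52 FPKM in vutiglabridin and 29.7 ± 4.2 in semaglutide livers (0.24 ± 0.08, adjusted p = 0.0334), with vehicle between them at 31.1 ± 3.44. That call was lost in 8 of 15 settings and 6 of 24 omissions.

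**Figure D3:**
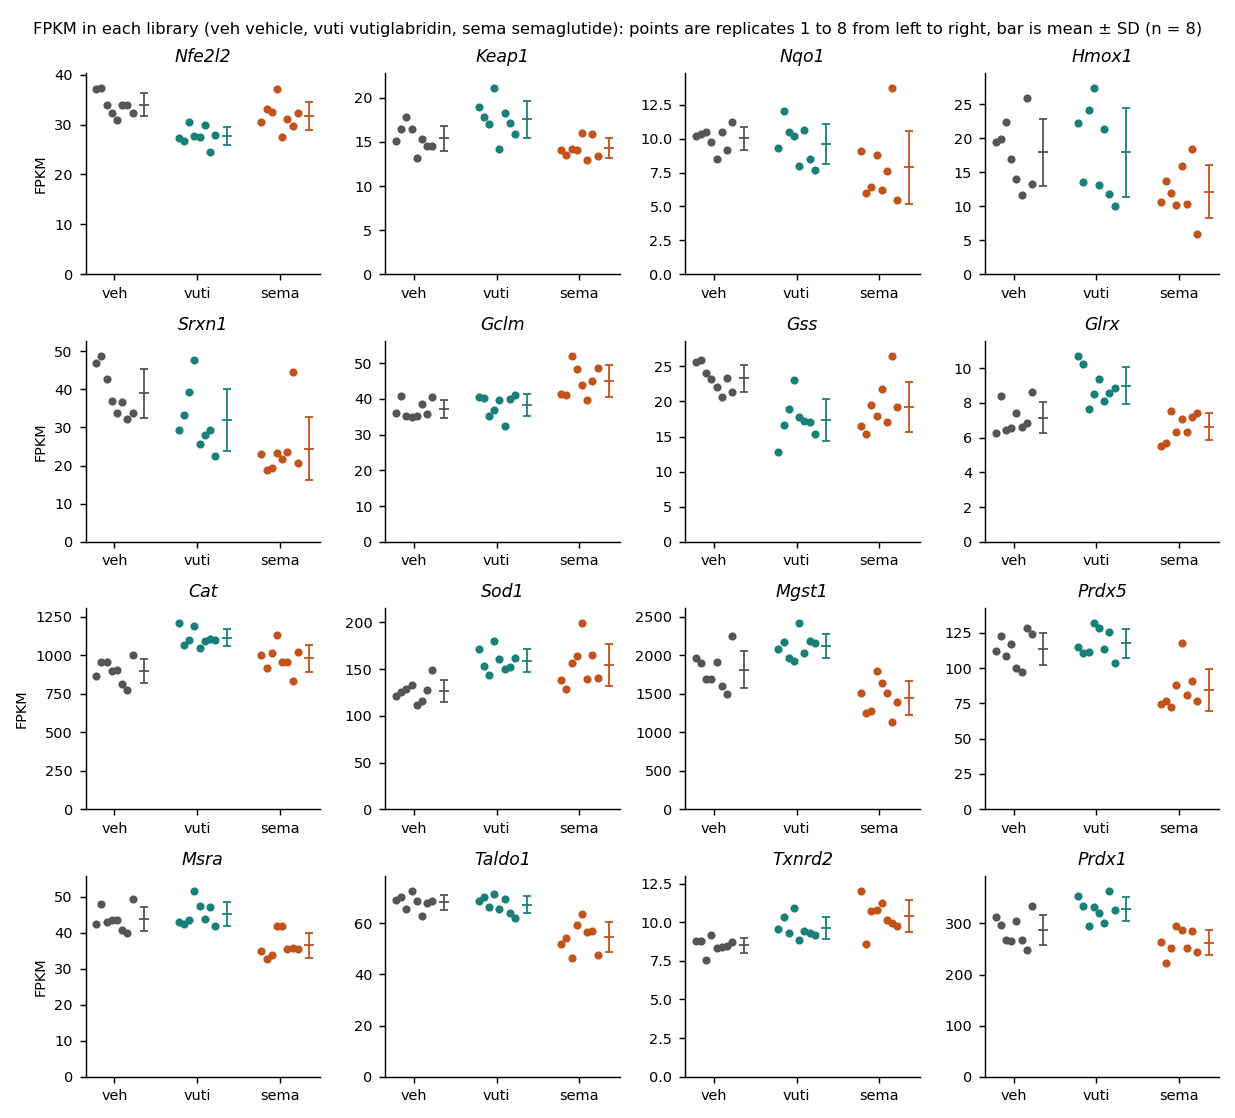
FPKM of 16 members in each library, with replicates 1 to 8 from left to right in vehicle (veh), vutiglabridin (vuti) and semaglutide (sema), and the mean ± SD (n = 8) as a bar, each axis starting at 0. The vutiglabridin points of Nfe2l2 lie below and those of Cat above all vehicle points, and semaglutide replicate 7 stands above its group for Nqo1 and Srxn1.

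Sod1 and Cat, whose products turn superoxide into hydrogen peroxide and hydrogen peroxide into water, were higher under vutiglabridin. Sod1 (chr16:90220754-90226329) ranged from 112 to 149 FPKM (median 127) in vehicle, 144 to 180.3 (median 157) in vutiglabridin and 129 to 199 (median 149) in semaglutide libraries. All 8 libraries of each drug lay above the vehicle mean, and 7 of 8 vutiglabridin libraries above all vehicle libraries. It was higher by 0.33 ± 0.08 under vutiglabridin (adjusted p = 0.00453) and by 0.27 ± 0.08 under semaglutide (0.00895). The drugs themselves differed by 0.05 with a 95% interval of −0.10 to 0.21. The vutiglabridin call was lost under quantile normalization (0.16, adjusted p = 0.0546).

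Catalase mRNA (Cat, chr2:103453849-103485160, minus strand) was 772 to 999.9 FPKM (median 901) in vehicle, 1047 to 1207 (median 1096) in vutiglabridin and 830.4 to 1131 (median 979) in semaglutide libraries. Every vutiglabridin library lay above every vehicle library. The difference was 0.32 ± 0.06 (adjusted p = 0.00166) against vehicle and 0.19 ± 0.06 (0.0347) against semaglutide. Under quantile normalization, which fixes the distribution of each library, these became −0.01 (adjusted p = 0.910) and −0.03 (0.742), and neither passed. The call against vehicle passed in the other 14 of 15 settings, TPM scaling (0.16, adjusted p = 0.0416) among them, and in all 24 omissions. The call against semaglutide was also lost in 4 other settings and 5 of 24 omissions. Sod2, the mitochondrial superoxide dismutase, was 19.5 ± 1.03 FPKM in vutiglabridin, 18.2 ± 1.20 in vehicle and 17.6 ± 1.27 in semaglutide livers. It passed only between the drugs (0.14 ± 0.05, adjusted p = 0.0454), and that call was lost in 17 of the 24 omissions, in 6 of which the library left out was a vehicle library, since all groups share the estimate of the spread.

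Glutathione peroxidases reduce hydrogen peroxide and lipid peroxides with glutathione, and only Gpx4, the enzyme for lipid peroxides in membranes, passed. It was measured at 112 to 142 FPKM (median 122) in vehicle, 89.0 to 139 (median 102) in vutiglabridin and 66.6 to 146 (median 93.0) in semaglutide libraries. In each drug group most libraries lay below all vehicle libraries, 7 of 8 for vutiglabridin and 6 of 8 for semaglutide. The difference was −0.35 ± 0.12 for semaglutide (adjusted p = 0.0310) and −0.27 ± 0.12 for vutiglabridin (0.133). The semaglutide call was lost in 6 of 24 omissions, under the exact Wilcoxon test (adjusted p = 0.158) and without the shallow libraries (−0.25, 0.174), and vutiglabridin passed in 6 of 15 settings, among them the exact Wilcoxon test (0.0452). Gpx1 means were 1209 ± 127, 1031 ± 204 and 1026 ± 232 FPKM in vehicle, vutiglabridin and semaglutide, with differences of −0.25 ± 0.12 (adjusted p = 0.168) and −0.26 ± 0.12 (0.109) from vehicle. The vutiglabridin difference passed in 4 of 15 settings and the semaglutide difference in 3. Without semaglutide replicate 5 the latter was −0.35 (adjusted p = 0.013). Gpx3, a secreted peroxidase, and Selenop had differences of −0.16 to 0.38 and did not pass.

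In the thioredoxin and glutaredoxin system, Glrx was higher under vutiglabridin and Txnrd2 under semaglutide. Glrx, the cytosolic glutaredoxin, which removes glutathione from protein cysteines, held 6.29 to 8.61 FPKM (median 6.74) in vehicle, 7.65 to 10.7 (median 8.72) in vutiglabridin and 5.52 to 7.51 (median 6.71) in semaglutide libraries. Each vutiglabridin library lay above each semaglutide library and above the vehicle mean. The difference was 0.39 ± 0.08 against semaglutide (adjusted p = 0.000464), which passed throughout, and 0.30 ± 0.08 against vehicle (0.00872), which was 0.17 (0.116) after TPM scaling.

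Txnrd2, the mitochondrial thioredoxin reductase, ran from 7.53 to 9.20 FPKM (median 8.57) in vehicle, 8.82 to 10.9 (median 9.39) in vutiglabridin and 8.62 to 12.1 (median 10.4) in semaglutide libraries, with 7 of 8 semaglutide libraries above all vehicle libraries. It was higher under semaglutide by 0.26 ± 0.06 (adjusted p = 0.00131) in every setting and omission, and by 0.16 ± 0.06 under vutiglabridin, which did not pass (0.0552). Txnrd1, the cytosolic reductase and an NRF2 target, ranged from 21.98 to 30.7 FPKM (median 26.6) in vehicle, 26.5 to 34.9 (median 29.4) in vutiglabridin and 23.1 to 31.3 (median 26.9) in semaglutide libraries. Its difference of 0.20 ± 0.07 for vutiglabridin against vehicle did not pass (adjusted p = 0.0680), although all 8 libraries lay above the vehicle mean. Txn1, cytosolic thioredoxin, passed only between the drugs, at 231 ± 27.3 FPKM against 189.7 ± 29.6 (0.29 ± 0.08, adjusted p = 0.0127), with vehicle at 207 ± 15.6, and that call was lost in 4 of 15 settings. Txn2, its mitochondrial counterpart, had differences of 0.01 to 0.10 and did not pass.

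Peroxiredoxins reduce peroxides through thioredoxin or, for Prdx6, glutathione, and 2 of 6 were higher under vutiglabridin while 1 was lower under semaglutide. Prdx5, found in mitochondria and peroxisomes, was measured at 97.3 to 128 FPKM (median 114) in vehicle, 103 to 132 (median 114) in vutiglabridin and 72.3 to 117 (median 78.5) in semaglutide libraries. Of the semaglutide libraries, 7 of 8 lay below all vehicle libraries, and replicate 5 was at 117. The difference was −0.43 ± 0.08 from vehicle (adjusted p = 0.000429) and 0.48 ± 0.08 for vutiglabridin against semaglutide (0.000171), both passing throughout. Trmt112, which shares 19.1% of the exon bases of Prdx5 on the opposite strand, differed from vehicle by 0.03 ± 0.11 under semaglutide (adjusted p = 0.856).

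Prdx1, the abundant cytosolic member, held 248 to 334 FPKM (median 283) in vehicle, 295 to 364 (median 329) in vutiglabridin and 222 to 295 (median 258) in semaglutide libraries. All vutiglabridin libraries lay above all semaglutide libraries, by a narrow gap. The drugs differed by 0.32 ± 0.07 (adjusted p = 0.00125), which became 0.13 (0.101) under quantile normalization, while vutiglabridin against vehicle, at 0.20 ± 0.07, did not pass (0.0551). Prdx4, of the endoplasmic reticulum, was 35.5 ± 4.00 FPKM in vutiglabridin and 30.3 ± 2.59 in vehicle livers (0.22 ± 0.06, adjusted p = 0.0173), with semaglutide at 33.9 ± 1.73. Prdx6 was 150.7 ± 9.75 FPKM in vutiglabridin against 130.4 ± 9 in vehicle (0.21 ± 0.06, adjusted p = 0.0150) and 131 ± 10.7 in semaglutide livers (0.20 ± 0.06, 0.0134). After TPM scaling neither gene passed for vutiglabridin against vehicle, at 0.07 for Prdx4 and 0.05 for Prdx6, where the median of all genes was −0.13. Quantile normalization also ended both vutiglabridin calls against vehicle, at 0.14 (adjusted p = 0.106) and 0.05 (0.517), as did the exact Wilcoxon test for Prdx4 (0.0733). The Prdx6 call against semaglutide was lost after TPM scaling (0.10, adjusted p = 0.113), quantile normalization (0.04, 0.599) and removal of GC and length trends (0.13, 0.0690). Prdx2 and Prdx3 had group means of 41.5 to 42.4 and 104 to 111 FPKM and did not pass. Prdx2 and Prdx6 have annotated near-identical copies or pseudogenes, so their values depend on how shared reads were assigned.

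Mgst1 and Msra were higher in vutiglabridin than in semaglutide livers and lower in semaglutide than in vehicle livers. Mgst1 (chr6:138140316-138156755), a microsomal transferase that also reduces lipid peroxides, ranged from 1499 to 2251 FPKM (median 1794) in vehicle, 1929 to 2416 (median 2117) in vutiglabridin and 1138 to 1798 (median 1447) in semaglutide libraries. All vutiglabridin libraries lay above all semaglutide libraries, and all semaglutide libraries below the vehicle mean. Differences were 0.57 ± 0.09 between the drugs (adjusted p = 7.8e-05), −0.34 ± 0.09 for semaglutide against vehicle (0.00767) and 0.23 ± 0.09 for vutiglabridin against vehicle, which did not pass (0.0922). Quantile normalization ended both calls, at 0.24 (adjusted p = 0.0725) and −0.19 (0.150).

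Msra, which reduces oxidized methionine in proteins, held 39.9 to 49.4 FPKM (median 43.3) in vehicle, 42.0 to 51.8 (median 43.7) in vutiglabridin and 32.9 to 41.9 (median 35.5) in semaglutide libraries. All vutiglabridin libraries lay just above all semaglutide libraries, and 6 of 8 semaglutide libraries below all vehicle libraries. It was lower under semaglutide by −0.26 ± 0.06 (adjusted p = 0.00203) and higher in vutiglabridin than in semaglutide livers by 0.30 ± 0.06 (0.000567), and both calls passed throughout. Mgst3, a related transferase, was 19.7 ± 5.54 FPKM in vutiglabridin and 24.2 ± 2.95 in vehicle livers (−0.31 ± 0.14, adjusted p = 0.132) and did not pass.

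Of the pentose phosphate enzymes, which yield NADPH and recycle its sugars, only Taldo1, transaldolase, passed. Vehicle libraries held 62.8 to 72.8 FPKM (median 68.8), vutiglabridin 62.2 to 71.4 (median 67.5) and semaglutide 46.3 to 63.5 (median 55.4). In semaglutide, 7 of 8 libraries lay below all vehicle and all vutiglabridin libraries. It was lower by −0.32 ± 0.06 against vehicle (adjusted p = 0.000142), and vutiglabridin was higher than semaglutide by 0.30 ± 0.06 (0.000333), under every setting and omission. G6pdx, the first enzyme of the pathway, ranged from 2.52 to 4.02 FPKM (median 3.39) in vehicle, 2.38 to 5.47 (median 3.17) in vutiglabridin and 2.78 to 4.50 (median 3.20) in semaglutide libraries. Its differences were −0.04 ± 0.10 and 0.00 ± 0.10 from vehicle, with 95% intervals of −0.25 to 0.18 and −0.21 to 0.21. Pgd and Tkt had differences of −0.26 to 0.18 and did not pass.

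Other genes of the pathway were described from lists of genes around the members, with the same tests over all genes. Their counts are to be read against the shares of all genes called, 6.53% higher and 8.78% lower for vutiglabridin against vehicle, 14.3% and 12.7% for semaglutide against vehicle, and 11.9% and 12.6% between the drugs. After TPM scaling the shares for vutiglabridin against vehicle were 2.02% and 23.6%. Of 14 genes that control NRF2 or share its partners, none passed for vutiglabridin against vehicle, and 3 were higher and 2 lower under semaglutide. Bach1, a repressor that competes with NRF2 for its sites, was 9.12 ± 0.454 FPKM under semaglutide and 7.16 ± 0.797 in vehicle (0.32 ± 0.08, adjusted p = 0.00318). Cul3, the scaffold of the ligase that KEAP1 serves, was 17.8 ± 1.65 against 14.4 ± 1.46 (0.29 ± 0.07, 0.00390), and Gsk3b, a kinase that marks NRF2 for another ligase, 5.27 ± 0.505 against 4.30 ± 0.288 (0.24 ± 0.06, 0.00669). Cdkn1a, an inhibitor of cell division, was lower at 2.78 ± 1.43 against 7.22 ± 2.24 (−1.16 ± 0.27, 0.00232). The summed FPKM of the 14 genes was 294 ± 26.05 in vehicle, 303 ± 28.04 in vutiglabridin and 288 ± 43.4 in semaglutide livers.

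Of 19 tested genes among 20 other NRF2 targets, 5 were higher and 0 lower under vutiglabridin, 0 higher and 6 lower under semaglutide, and 11 higher and 0 lower in vutiglabridin against semaglutide. Their median differences were 0.18, −0.09 and 0.36, beside 0.01, −0.01 and 0.01 over all genes. Gstm1, a glutathione transferase, rose from 1024 ± 121 FPKM in vehicle to 1630.3 ± 316 under vutiglabridin (0.66 ± 0.13, adjusted p = 0.000952), and Cyp2a5, a cytochrome P450, from 217 ± 52.6 to 396 ± 121 (0.85 ± 0.19, 0.00307). Under semaglutide, Ftl1, ferritin light chain, fell from 1169 ± 89.7 to 927 ± 194 (−0.36 ± 0.10, 0.0120), and Aox1, aldehyde oxidase, from 15.3 ± 1.14 to 12.7 ± 2.28 (−0.26 ± 0.08, 0.0147). The drugs differed in Aox1 by 0.47 ± 0.08 (adjusted p = 0.000106) and in Ftl1 by 0.54 ± 0.10 (0.000458). After TPM scaling, 2 of the 19 were higher and 1 lower for vutiglabridin against vehicle, and quantile normalization left 1 higher. Between the drugs, quantile normalization left 6 of the 11. Gstm1, Gstm3 and Cyp2a5 have near-identical relatives, which makes their single values uncertain. Slc7a11, the cystine importer, was below the filter, at up to 0.08 FPKM in any library.

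Of 24 tested genes among 27 others of glutathione and thioredoxin metabolism, 6 were higher and 2 lower under vutiglabridin, and 0 higher and 5 lower under semaglutide. The 2 with the lowest p belong to methionine metabolism, which supplies cysteine for glutathione. Gnmt, glycine N-methyltransferase, rose from 641 ± 140 FPKM in vehicle to 1149 ± 169 under vutiglabridin (0.86 ± 0.12, adjusted p = 8.25e-05), and Ahcy, which splits S-adenosylhomocysteine, from 122 ± 19.4 to 190.1 ± 22.2 (0.64 ± 0.09, 5e-05). Cth, which releases cysteine, was 108 ± 16 against 81.0 ± 11.0 (0.40 ± 0.11, 0.0143). Under semaglutide, Glrx5, a mitochondrial glutaredoxin, was 20.6 ± 4.05 against 25.2 ± 2.14 (−0.30 ± 0.09, 0.0130), and Sod3, the extracellular superoxide dismutase, 11.8 ± 1.34 against 15.9 ± 3.79 (−0.38 ± 0.11, 0.0124). After TPM scaling the vutiglabridin split was 3 higher and 7 lower.

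Of 12 tested genes among 13 other NADPH sources, 5 were higher and 0 lower under vutiglabridin, and 1 was higher under semaglutide. Aldh1l1, a folate enzyme that yields NADPH, rose from 202 ± 26.05 to 298 ± 46.3 FPKM under vutiglabridin (0.56 ± 0.10, adjusted p = 0.000624), Mthfd1 from 51.0 ± 3.58 to 64.6 ± 6.27 (0.33 ± 0.07, 0.00127), and Idh1, cytosolic isocitrate dehydrogenase, from 167 ± 19.1 to 205 ± 26.1 (0.30 ± 0.09, 0.0258). After TPM scaling 2 were higher and 2 lower. Nadk2, the mitochondrial NAD kinase, rose under semaglutide from 24.97 ± 3.86 to 36.3 ± 3.75 (0.53 ± 0.09, 6.46e-05). Of 18 tested selenoprotein and selenium genes, 1 was higher and 1 lower in each comparison with vehicle, and of 4 other methionine sulfoxide and biliverdin reductases, 0 and 1.

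Of 13 genes of NADPH oxidases and other oxidant sources, 3 were higher and 4 lower under each drug. Cybb, the catalytic subunit of the phagocyte NADPH oxidase, was 9.46 ± 1.88 FPKM in vehicle, 5.59 ± 1.22 under vutiglabridin (−0.67 ± 0.11, adjusted p = 0.000246) and 6.98 ± 0.931 under semaglutide (−0.38 ± 0.11, 0.0115). Cyp2e1, a cytochrome P450 that leaks oxidants, was 2444 ± 381 in vehicle, 3352 ± 464 under vutiglabridin (0.46 ± 0.12, 0.0113) and 3499.7 ± 761 under semaglutide (0.51 ± 0.12, 0.00302). Rac2, a GTPase of the phagocyte oxidase, was lower under vutiglabridin (−0.60 ± 0.16, 0.0130), and Nox4 was higher under semaglutide (0.43 ± 0.09, 0.00114). After TPM scaling, 0 of the 13 were higher and 8 lower for vutiglabridin against vehicle, beside 2.02% and 23.6% of all genes.

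Markers of some liver cell types differed between the groups, while in other lists few or none passed. Of all genes tested, 6.53% were higher and 8.78% lower under vutiglabridin, and 14.3% and 12.7% under semaglutide. Of 12 macrophage and Kupffer cell markers, 9 were lower and 0 higher under vutiglabridin and 6 lower and 0 higher under semaglutide, with summed levels of 417 to 807 FPKM in vehicle, 211 to 439.9 in vutiglabridin and 279 to 494 in semaglutide libraries. Of 8 stellate cell and myofibroblast markers, 4 and 5 were lower, with sums of 128 to 184, 75.8 to 127 and 77.7 to 119.7 FPKM. Of 10 hepatocyte markers, 3 and 5 were higher, with sums of 39812 to 50224, 45654 to 59413 and 45358 to 57712 FPKM. TPM scaling took the median difference of the hepatocyte markers from 0.23 to 0.07 for vutiglabridin and from 0.26 to 0.20 for semaglutide. Cholangiocyte markers were lower for 2 of 6 under vutiglabridin and none of 6 passed under semaglutide, with sums of 157 to 345, 71.0 to 197 and 95.5 to 293 FPKM. Of 6 sinusoidal endothelial markers, 1 was higher under vutiglabridin, and 2 were higher and 1 lower under semaglutide, with sums of 38.2 to 44.0, 36.9 to 50.4 and 34.1 to 48.9 FPKM. Lymphocyte markers were lower for 2 of 4 tested under vutiglabridin, with sums of 2.87 to 18.3, 1.42 to 4.01 and 3.09 to 6.53 FPKM, and of 3 tested neutrophil markers none passed against vehicle, with sums of 3.70 to 7.30, 1.62 to 9.02 and 2.60 to 14.1 FPKM. Red blood cells are rich in Cat, Prdx2 and Blvrb, and their 6 tested markers held 1 lower gene under semaglutide, with sums of 114 to 448, 127 to 511 and 122 to 192 FPKM. No listed marker in the table was at 0 in all libraries. In bulk tissue, fewer cells of a type and less RNA per cell cannot be told apart, and the part of these markers in the members' differences was not tested.

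Single libraries stood out across the members. In vutiglabridin replicate 4, 23 of 36 members (63.9%) had their highest value of the group, where 20.8% of all tested genes did, and it held the highest Keap1, Srxn1, Hmox1 and Gss. Without it, 9 members rather than 12 were higher in vutiglabridin than in semaglutide livers. In semaglutide replicate 7, 9 members (25%) were highest, against 12.6% of all genes, and among 6 often used NRF2 targets (Nqo1, Hmox1, Srxn1, Txnrd1, Gclc and Gclm) these were 4, at 13.7, 18.5, 44.5 and 31.3 FPKM where the medians of the other 7 libraries were 6.40, 10.6, 21.7 and 26.6. Without it, 15 members were higher in vutiglabridin than in semaglutide livers. In semaglutide replicate 5 and vehicle replicate 8, 12 members each (33.3%) were highest, against 18.6% and 16.5% of all genes. Vutiglabridin replicate 4 had 14120000 implied fragments, which lies within the range of its group. Semaglutide replicates 5 and 7, at 12420000 and 12160000, were the deepest of their group, where the next was 11280000. The part of depth in these values was not tested.

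**Figure D4:**
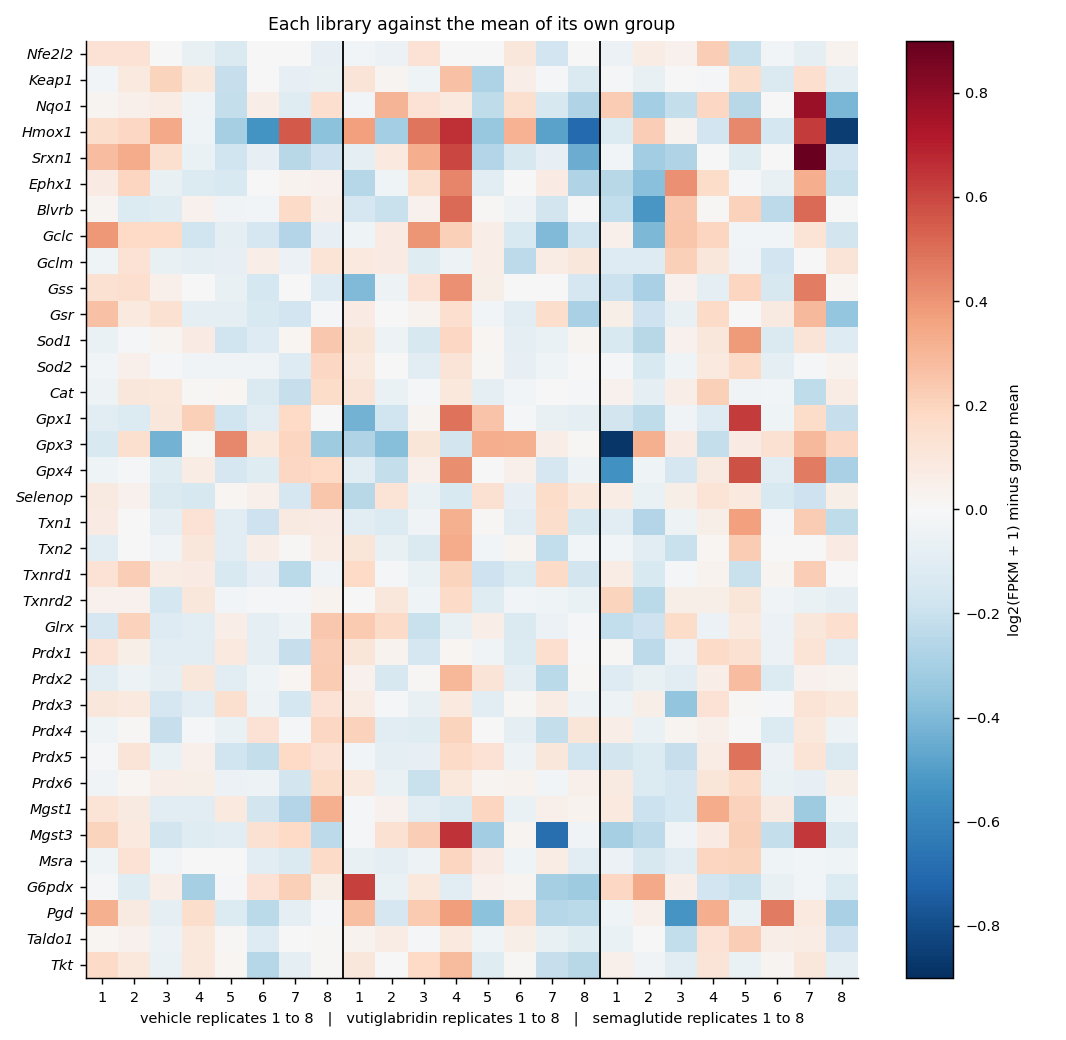
Value of each member in each library minus the mean of its group, on the log2(FPKM + 1) scale (colour, red above and blue below the mean), with the 8 libraries of each group side by side and members in the order of their roles. The column of vutiglabridin replicate 4 is red for most members, and semaglutide replicate 7 is dark red for Nqo1, Hmox1, Srxn1 and Mgst3.

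**Figure D5:**
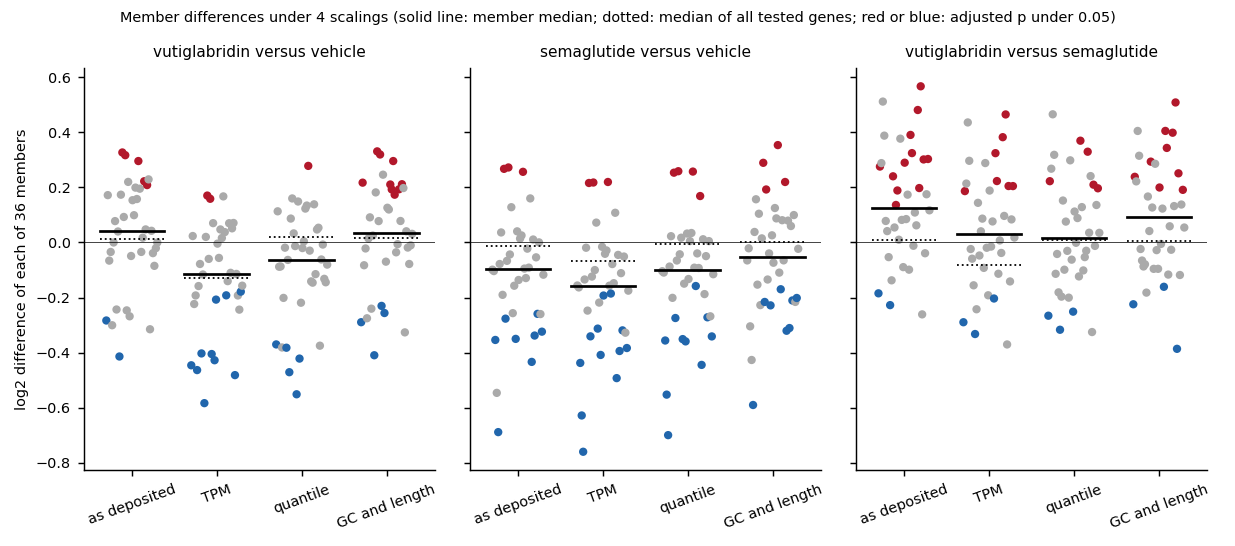
Difference of each of the 36 members in the 3 comparisons (vertical axis, log2 scale) as deposited, after TPM scaling, after quantile normalization and after removal of GC and length trends, with points in red or blue where adjusted p was under 0.05. The solid line is the median of the members and the dotted line that of all tested genes, which TPM scaling moved to −0.13 for vutiglabridin against vehicle.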

How the data were processed

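Deposited FPKM values of 24 mouse liver libraries were used, and no counts. Per the labels' protocols, RNA came from Qiagen RNeasy columns, libraries from Illumina's stranded TruSeq mRNA kit and paired-end reads from a NovaSeq. The submitters' processing notes name HISAT2, StringTie and DESeq2, without versions, roles or a genome build, which the sources used here do not give. The authors' FPKM divides by gene length and mapped fragments, so abundant genes shift the values of others. All 14293 identifiers and symbols matched GENCODE M21 (GRCm38), which gave coordinates. There were 0 columns of other samples.

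Values were taken as log2(FPKM + 1), which understates changes of low genes. A gene was tested if 8 or more libraries reached 0.5 FPKM, and tested genes were fitted with limma 3.58.1 (R 4.3.3, mean trend, 2-sided, Benjamini-Hochberg over all genes, threshold 0.05), and the fit was tested on simulated data. The members, gene lists and tests were chosen with earlier results of these data known. Values are given for every member that passed in any comparison and for Nfe2l2, Keap1, Nqo1, Hmox1, Gclc, Gclm, Txnrd1, Srxn1 and G6pdx. Of each pathway list, up to 4 genes that passed, those of lowest p, could be named, and some were picked after their values were seen, and Slc7a11, Acss2 and Trmt112 were also added then.

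The settings varied were the pseudocount (0.1, 0.5), the filter (none, mean of 1 FPKM or more), the scaling (TPM, quantile, median), a robust spread, sample weights, a fit of the compared groups alone, a block on replicate number, exact Wilcoxon tests, removal of GC and length trends (splines with 5 degrees of freedom, from the longest GENCODE transcript, also with the block) and each library left out. The omission of the 4 libraries under 10000000 implied fragments was added after the depths were seen. Implied fragments come from values up to 0.6 FPKM, with whole fragments taken within 0.2.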

Additional observations from a re-analysis of the deposited data

Results flagged for a closer look

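Over 108 groups of 8 values (36 members in 3 groups), the highest or lowest library lay far from its neighbour, by Dixon's criterion of a gap over 0.526 of the range, in 10. Chance flags about 1 in 20 groups of independent, normally distributed values. The 108 groups hold untransformed FPKM of the same 24 libraries, so the count of 10 cannot be tested against that rate. Semaglutide replicate 7 was high for Nqo1 (13.72 FPKM, next 9.06), Srxn1 (44.47, next 23.59) and Mgst3 (36.36, next 26.91). Semaglutide replicate 5 was high for Gpx1 (1559.98 FPKM, next 1130.68), Prdx2 (50.65, next 43.3) and Prdx5 (117.47, next 91.08). Vutiglabridin replicate 4 was high for Blvrb (54.36 FPKM, next 39) and Gpx4 (138.69, next 106.71), and vutiglabridin replicate 1 for G6pdx (5.47, next 3.52). Semaglutide replicate 3 was low for Prdx3 (80.29 FPKM, next 99.79).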

How the results depend on the processing

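Of the calls against vehicle, 2 of 7 for vutiglabridin (Nfe2l2 and Gss) and 6 of 11 for semaglutide (Srxn1, Sod1, Txnrd2, Prdx5, Msra and Taldo1) passed under all 15 alternatives and 24 omissions, as did 5 of 14 between the drugs (Keap1, Glrx, Prdx5, Msra and Taldo1). The shares of all genes called, which shift with the setting, follow each count in brackets. For vutiglabridin against vehicle, the main fit gave 5 higher and 2 lower (6.53% and 8.78%). TPM scaling gave 2 and 10 (2.02% and 23.6%), quantile normalization 1 and 5 (4.65% and 7.33%), and median centring 8 higher (7.93%). Removal of GC and length trends gave 9 and 4 (9.58% and 9.58%), and the replicate block with that removal 8 and 4 (9.31% and 9.5%). For semaglutide against vehicle, the main fit gave 3 higher and 8 lower (14.3% and 12.7%). The block with that removal gave 5 higher (14.2%) and exact Wilcoxon tests 5 lower (11.5%). Omission of all libraries under 10000000 implied fragments gave 5 lower (8.96%). For vutiglabridin against semaglutide, the main fit gave 12 higher and 2 lower (11.9% and 12.6%). TPM scaling gave 7 higher (5.15%) and quantile normalization 5 higher (10.4%). The block with GC and length removal (11.2%) and the omission of shallow libraries (9.24%) gave 1 lower each. The cause of these shifts was not tested. Cat turned under quantile normalization, to −0.0131 against vehicle and −0.0304 against semaglutide.

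With 1 library left out, the counts ranged from 5 to 8 higher (8 without vutiglabridin replicate 5) and 2 to 3 lower for vutiglabridin against vehicle, 3 to 4 higher and 6 to 9 lower for semaglutide against vehicle, and 9 to 15 higher and 2 lower between the drugs. The replicate block alone gave 5 and 2 (all genes 6.31% and 8.59%), 3 and 9 (14.1% and 12.5%), and 12 and 2 (11.6% and 12.1%). The labels do not state that replicate numbers pair libraries, so the numbers were not taken to pair them. Deviations of same-numbered libraries from their group means correlated over 0.1 in 6, 2 and 3 of 8 pairs, in the same order of comparisons. Differently numbered libraries were not set beside these, so the correlations cannot settle whether libraries are paired. Depth, 5960000 to 19820000 implied fragments, limits low members such as G6pdx most.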
